A study of Mus musculus with 54 samples.

Results

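The immediate early genes described here are Fos, Fosb, Junb, Egr1, Egr2, Egr3, Egr4, Nr4a1, Npas4 and Arc, 10 of the 47069 genes counted. They were chosen as a named list of activity-induced genes and found in the table by their Ensembl identifiers in the GRCm38 annotation. The rule uses no measured value, but the list was drawn up with earlier results of these data known. RNA-seq read counts were available for cortex, striatum and cerebellum of 18 mice, 54 libraries in all. Mbd5+/GT mice (10 animals, 5 female and 5 male) carry 1 Mbd5 allele with a gene-trap construct in intron 2 (a hypomorphic allele that lowers Mbd5 expression). Wild-type littermates (WT, 8 animals, 5 female and 3 male) were the controls. All mice were on a C57BL/6 background, 8 weeks old, and they came from 3 litters, of which litter 1 was all female, litter 2 was all male with 1 WT mouse, and litter 3 held both sexes. The mouse numbers in the labels pair the 3 regions of each animal. No stimulus or drug is named in the sources used here, so the levels are read as those of the tissue at dissection.

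Immediate early genes are transcribed within minutes of synaptic activity or growth factor signalling, because the factors that switch them on (CREB, SRF with its ternary complex partners, and MEF2) are already bound or present in the cell and need only be phosphorylated or recruited. Calcium entry through NMDA receptors and voltage-gated channels and the MAP kinase cascade carry the signal to the nucleus. Most of the products are transcription factors that start later waves of gene expression, while Arc acts at the synapse, and in brain tissue these transcripts are widely read as a record of recent neuronal firing.

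Each library held 25295973 to 49027399 reads on genes (median 29073866). The targeted gene was lower in Mbd5+/GT mice in each region. Mbd5 averaged 64.1 ± 9.10 CPM (reads of the gene scaled to a common library size, SD, n = 8) in WT and 44.9 ± 4.24 (n = 10) in Mbd5+/GT cortex, with a log2 difference of -0.49 there, -0.51 in the striatal and -0.34 in the cerebellar libraries (edgeR adjusted p = 0.00012, 9.41e-05 and 0.00912). By fixed marker lists, 11 libraries stood apart from the rest of their region. They were cortices with a striatal marker sum above 1000 CPM, striata with that sum below 1000 CPM and cerebella with a Hox sum above 50 CPM. In 4 cerebellar libraries (WT mice M754 and M761, Mbd5+/GT mice M755 and M756) the Hox genes, which pattern the hindbrain and spinal cord, summed to between 65.9 and 599 CPM, against 0.110 to 5.05 in the other 14, and in the cerebellum of mouse M755 the 10 cerebellar neuron markers summed to 209 CPM, against 8147 to 9571 in those 14. In the striatum of WT mice M754 and M761, markers of striatal projection neurons summed to 230 and 573 CPM, against 1305 to 7100.2 in the other 16. The libraries labelled striatum from these animals were thus poor in markers of the cells that define it. In 5 cortical libraries (WT mice M752, M759, M761 and M765 and Mbd5+/GT mouse M766) the same striatal markers summed to 1274 to 1990.4 CPM, against 228 to 933 in the other 13. Without these libraries the Mbd5 difference was -0.39 in cortex and no longer called (edgeR p = 8.98e-06, adjusted 0.162), and it stayed called at -0.51 in striatum and -0.37 in cerebellum (edgeR adjusted p = 0.000985 and 0.0173). Results below are given with and without these libraries where they differ in call, direction or size. Of the striata kept, those of Mbd5+/GT mice M763, M756, M755 and M753 had striatal marker sums of 1305, 1468, 1530 and 1910 CPM. These sums lie within the range of the 5 cortices set apart, while both striata set apart were WT. As in any bulk tissue, fewer cells of a type and less RNA per cell cannot be told apart.

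Because these genes moved together across mice, the 250 bases before the transcription start of 5 of them are shown, with the motifs through which CREB and SRF are known to act. Sequences were taken from a set of RefSeq promoters on GRCm38, in which 7 of the 10 genes matched. Arc, Egr1 and Egr3 had no match among the promoters kept for the search, which does not show that RefSeq lacks promoters for them. The windows of Fosb and Npas4 overlap annotated exons and are not printed. Capitals mark the core of the cAMP response element (CRE), TGACG or CGTCA on the strand shown, and the CArG box of SRF, which was searched by its consensus on both strands; the full palindromic element, TGACG followed directly by TCA, was a separate motif. The windows lie at chr12:85473640-85473889 on the plus strand (Fos), chr8:84978749-84978998 on the minus strand (Junb), chr10:67537619-67537868 on the plus strand (Egr2), chr6:85513590-85513839 on the minus strand (Egr4) and chr15:101266596-101266845 on the plus strand (Nr4a1), none of them overlapping an annotated exon.
Fos: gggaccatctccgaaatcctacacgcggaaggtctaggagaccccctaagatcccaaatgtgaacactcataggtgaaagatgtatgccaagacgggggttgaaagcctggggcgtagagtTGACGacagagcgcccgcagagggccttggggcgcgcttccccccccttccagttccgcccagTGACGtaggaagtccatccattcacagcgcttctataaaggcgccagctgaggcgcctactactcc
Junb: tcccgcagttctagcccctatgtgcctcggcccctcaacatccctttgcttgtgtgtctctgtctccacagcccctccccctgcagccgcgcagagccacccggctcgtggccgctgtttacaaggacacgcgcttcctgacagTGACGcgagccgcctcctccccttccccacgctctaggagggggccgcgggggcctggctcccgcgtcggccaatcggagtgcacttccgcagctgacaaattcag
Egr2: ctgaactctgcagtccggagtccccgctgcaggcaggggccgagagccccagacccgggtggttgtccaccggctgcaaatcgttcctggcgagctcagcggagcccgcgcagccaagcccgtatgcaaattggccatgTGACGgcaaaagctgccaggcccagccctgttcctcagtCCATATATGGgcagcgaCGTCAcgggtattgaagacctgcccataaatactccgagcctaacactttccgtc
Egr4: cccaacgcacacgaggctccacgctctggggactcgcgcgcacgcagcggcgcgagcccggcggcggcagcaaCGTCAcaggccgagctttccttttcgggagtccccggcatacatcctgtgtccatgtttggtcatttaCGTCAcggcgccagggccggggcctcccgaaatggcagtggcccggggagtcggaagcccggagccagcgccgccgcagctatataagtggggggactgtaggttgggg
Nr4a1: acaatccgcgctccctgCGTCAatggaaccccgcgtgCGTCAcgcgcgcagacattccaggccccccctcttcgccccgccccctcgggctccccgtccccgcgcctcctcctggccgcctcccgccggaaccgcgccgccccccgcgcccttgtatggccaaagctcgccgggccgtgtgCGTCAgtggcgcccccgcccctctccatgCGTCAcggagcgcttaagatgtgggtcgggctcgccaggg
The CRE core stood 129 and 66 bases before the start in Fos, 106 bases before it in Junb, 177 and 109 bases before it in Egr4, and at 4 positions between 233 and 40 bases before it in Nr4a1. Egr2 held a CRE core 111 and 55 bases before the start, on either side of a CArG box at 72 bases. All 7 matched genes had at least 1 CRE core in a window. Egr2 had several windows in the set, and not all of them held that core. The Npas4 window counted here lies wholly within an Npas4 exon. Of the 32851 RefSeq mouse promoters of this length in the set searched, 16.6% held that core and 1.47% a CArG box. These shares are per promoter, so the count of genes cannot be set against them directly. The full CRE was in none of the windows of the 7 matched genes and in 1.55% of the promoters searched. A match is a string of letters and not a measured binding site.

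Fos, Fosb and Junb encode subunits of the AP-1 transcription factor, in which a Fos protein pairs with a Jun protein. In cortex, Fos lay between 21.3 and 41.1 CPM (median 30.5) in the 8 WT mice and between 17.6 and 43.1 CPM (median 34.2) in the 10 Mbd5+/GT mice. In striatum the same gene ran from 13.4 to 47.0 CPM (median 26.8) in WT and from 11.2 to 61.6 CPM (median 23.3) in Mbd5+/GT, a wider range than in cortex, with the top value in mouse M755. In cerebellum it ran from 10.9 to 48.2 CPM (median 26.3) in WT and from 12.3 to 47.3 CPM (median 24.96) in Mbd5+/GT. The genotypes overlapped in all 3 regions, and the Fos ranges of cerebellum and forebrain overlapped as well. Its close relative Fosb, which also yields the long-lived splice form deltaFosB, averaged 18.1 ± 6.26 CPM in cortex, 21.3 ± 8.62 in striatum and 1.32 ± 0.596 in cerebellum (SD, n = 18), where its 17 to 88 counts a library limit the precision. Junb, the Jun partner, averaged 33.4 ± 7.19 CPM in cortex, 50.3 ± 18.8 in striatum and 4.79 ± 1.31 in cerebellum. Its gene overlaps Prdx2 on the other strand, and the strand setting of the counts is not given in the sources used here, so the reads of the pair may not be fully separated.

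The Egr genes encode zinc-finger factors that bind GC-rich promoter elements, and they differ in how strongly activity drives them. Egr1, the best known of them as a marker of synaptic plasticity, ranged from 199 to 475 CPM (median 246) in WT cortex and from 192 to 386 CPM (median 268) in Mbd5+/GT cortex. In striatum it ranged from 165 to 455 CPM (median 306) in WT and from 176 to 445 CPM (median 304) in Mbd5+/GT. In cerebellum it lay between 21.1 and 43.5 CPM in WT and between 28.0 and 48.99 CPM in Mbd5+/GT, so that no cerebellar library came near the lowest forebrain one. Egr4 averaged 17.2 ± 5.04 CPM in cortex, 32.6 ± 14.9 in striatum and 2.76 ± 1.37 in cerebellum (SD, n = 18), and had the widest cerebellar range of the genes tested there, 12.2-fold from lowest to highest. Egr2, known from hindbrain patterning and myelination as well as from neuronal activity, averaged 8.51 ± 3.40 CPM in cortex and 12.5 ± 5.37 in striatum. Egr3, needed for muscle spindle development and also induced by neuronal activity, averaged 40.9 ± 15.7 CPM in cortex and 28.8 ± 11.1 in striatum. In cerebellum these last genes were almost unread: Egr2 had 0 to 12 counts a library and Egr3 0 to 48. The 4 highest Egr3 counts, 13, 16, 22 and 48, came from the 4 cerebellar libraries with Hox counts, and the other 14 libraries held 0 to 5; the part of those libraries' makeup in this was not tested.

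Nr4a1 (Nur77) encodes an orphan nuclear receptor, and Npas4 a bHLH-PAS factor that, unlike most of the list, responds to calcium and hardly to growth factors. Nr4a1 ranged from 70.4 to 147 CPM (median 99.1) in WT cortex and from 68.9 to 130 CPM (median 102) in Mbd5+/GT cortex, the narrowest spread of the list in that region. It ranged from 56.6 to 208 CPM (median 136) in WT striatum and from 64.8 to 182 CPM (median 119) in Mbd5+/GT striatum, and over all 18 cerebella from 15.4 to 47.7 CPM. The lowest cerebellar value was that of mouse M755 and the next lowest, 17.5 CPM, that of mouse M754, the libraries poorest in cerebellar neuron markers. Npas4 ranged from 15.2 to 42.2 CPM (median 24.3) in WT cortex and from 18.5 to 44.8 CPM (median 28.0) in Mbd5+/GT cortex. In striatum it ran from 12.7 to 75.8 CPM (median 38.5) in WT and from 21.9 to 63.3 CPM (median 31.6) in Mbd5+/GT. In cerebellum it ran from 3.81 to 11.2 CPM (median 6.72) in WT and from 6.56 to 15.6 CPM (median 8.00) in Mbd5+/GT, and the groups overlapped in every region.

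Arc encodes a cytoskeletal protein that removes AMPA receptors from active synapses and is the 1 gene of the list whose product is not a transcription factor. It ranged from 111 to 523 CPM (median 201) in WT cortex and from 104 to 354 CPM (median 204) in Mbd5+/GT cortex, the widest spread of the list there on the log2 scale. In striatum it lay between 88.9 and 343 CPM (median 233) in WT and between 93.6 and 333 CPM (median 199) in Mbd5+/GT, and in cerebellum between 16.5 and 35.7 CPM (median 20.8) and between 17.0 and 36.5 CPM (median 21.0). Both tops of the cerebellar groups, 35.7 and 36.5 CPM, were in libraries with Hox counts (mice M754 and M755).

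**Figure D1:**
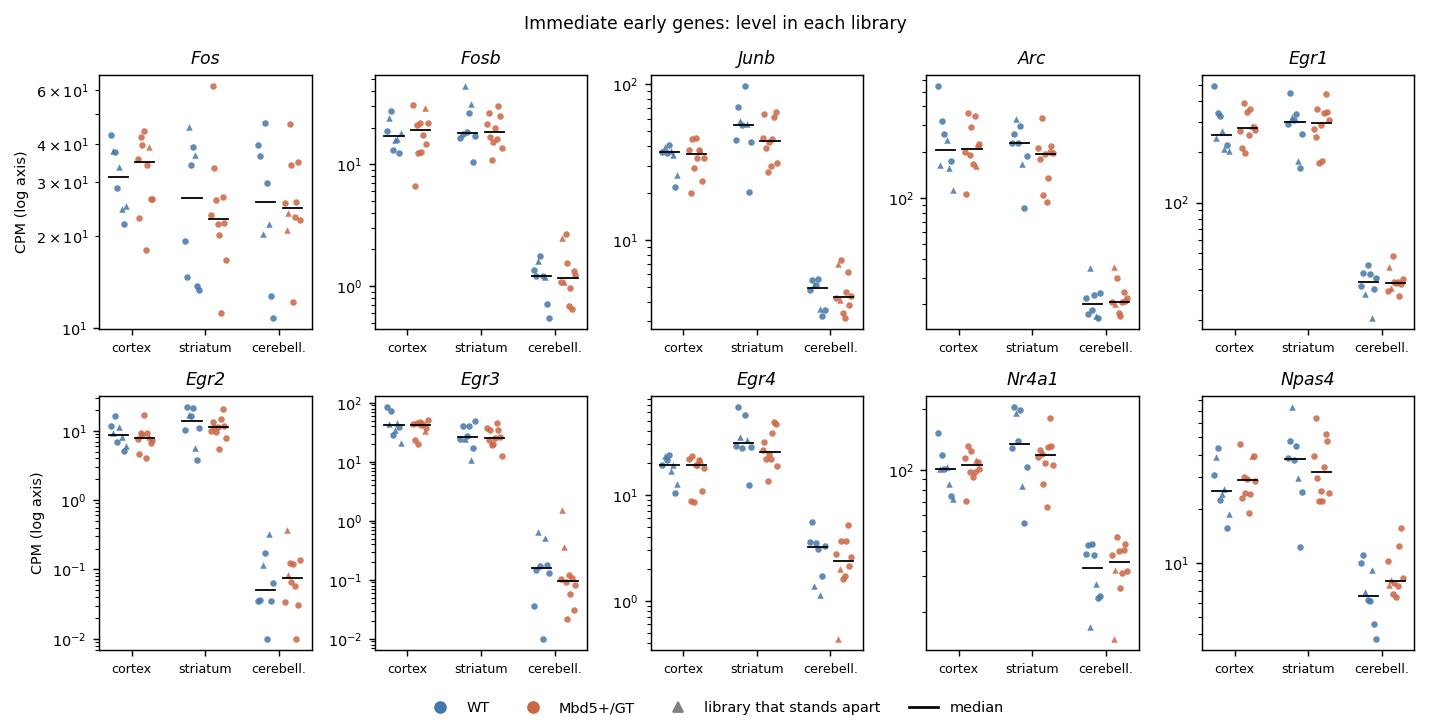
Level of each immediate early gene in each library, in CPM on a log axis, scaled over all 54 libraries, by region and genotype (blue, WT; orange, Mbd5+/GT). Bars are group medians, triangles are the 11 libraries that stand apart, and libraries without a count are drawn at 0.01 CPM; Fos spans a like range in the 3 regions, the other genes sit lower in cerebellum, and the genotypes overlap in each region.

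Per kilobase of exon, which allows levels to be compared between genes, Arc and Egr1 led in cortex with 75.3 ± 33.8 and 62.4 ± 16.8 CPM per kb (SD, n = 18), and Nr4a1 followed with 28.8 ± 5.82. Junb (14.5 ± 3.12) and Fos (13.4 ± 3.35) came next, then Egr3 (9.29 ± 3.56), Egr4 (8.00 ± 2.35) and Npas4 (6.83 ± 2.08), and last Fosb (2.90 ± 1.00) and Egr2 (2.51 ± 1.00). Arc and Egr1, Junb and Fos, the 3 genes from Egr3 to Npas4, and Fosb and Egr2 differed from their neighbours by less than their spread between mice. The striatal order began the same way, with Arc at 67.6 ± 24.2, Egr1 at 66.0 ± 19.1 and Nr4a1 at 36.4 ± 12.6 CPM per kb. In cerebellum Fos led with 11.7 ± 4.70 CPM per kb, followed by Nr4a1 (9.64 ± 2.73), Egr1 (7.69 ± 1.43) and Arc (7.40 ± 1.95), again neighbours within their spread.

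Set against cerebellum, 9 of the 10 genes were higher in cortex in edgeR's quasi-likelihood fit (p adjusted by Benjamini-Hochberg over 20477 genes), where 68.9% of all genes were called, 33.3% higher and 35.5% lower. Log2 differences ran from 1.64 for Nr4a1 (SE 0.145) and 1.83 for Npas4 (SE 0.177) through 3.08 for Egr1 (SE 0.134) and 3.42 for Arc (SE 0.188) to 6.38 for Egr2 (SE 0.306) and 7.44 for Egr3 (SE 0.347). Fos was the exception, at 0.25 (SE 0.190, 95% interval -0.13 to 0.62, edgeR adjusted p = 0.251). Striatum gave the same split of 9 higher and Fos not called, with 75.2% of all genes called, 37.3% higher and 38% lower. There Fos differed from cerebellum by -0.02 (SE 0.190, 95% interval -0.40 to 0.35, edgeR adjusted p = 0.916), while Fosb, its nearest relative, differed by 4.04 (SE 0.208). These comparisons share the cerebellar libraries, and the main fit did not pair the regions of a mouse. Without the libraries that stand apart, the differences of Egr2 and Egr3 from cerebellum grew to 7.02 and 8.95 in cortex and, from 6.88 and 6.87, to 7.54 and 8.35 in striatum. The libraries left out held the 2 highest cerebellar counts of Egr2, 12 and 10, and the 4 highest of Egr3.

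Between the forebrain regions the contrasts were small, and 4 of the 10 genes were called, 1 higher and 3 lower in cortex, where 58.9% of all genes were called, 30.1% higher and 28.9% lower. Egr4 was lower in cortex than in striatum, by -0.87 (SE 0.208, edgeR adjusted p = 0.000357), as were Junb, by -0.55 (SE 0.139, edgeR adjusted p = 0.000735), and Egr2, by -0.50 (SE 0.211, edgeR adjusted p = 0.0372). Egr3 was the only 1 called higher in cortex, by 0.57 (SE 0.236, edgeR adjusted p = 0.0360). Npas4 (-0.37, SE 0.170) and Nr4a1 (-0.30, SE 0.141) missed the threshold with edgeR adjusted p = 0.0564 and 0.0664. DESeq2 called both (adjusted p = 0.0399 and 0.0481) and not Egr3 (adjusted p = 0.0905). With the mouse as a block, Npas4 was called (-0.33, edgeR adjusted p = 0.00752) and Egr3 was not (0.57, edgeR adjusted p = 0.0538). Without the libraries that stand apart Arc was called as well, higher in cortex by 0.43 (SE 0.181, edgeR adjusted p = 0.0384).

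Other parts of the same response kept the forebrain bias less evenly. Of 34 other rapidly induced genes, 22 were higher and 6 lower in cortex than in cerebellum by the same edgeR test, with a median log2 difference of 0.51 against 2.98 for the 10 genes and -0.02 for all genes. Among 22 delayed targets 17 were higher and 2 lower, and among 24 upstream receptors, channels and kinases 14 were higher and 4 lower. The 18 upstream transcription factors and cofactors, the proteins that bind these promoters, split into 8 higher and 5 lower with a median of 0.00. In striatum against cerebellum the corresponding counts were 19 and 5, 12 and 8, 14 and 6, and 7 and 8. In cortex against striatum they were 5 and 8, 10 and 3, 12 and 6, and 11 and 4.

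The immediate early genes varied more between mice than a typical gene in cortex and striatum, but not all of them did in cerebellum. In cortex the SD of log2 CPM within genotypes ran from 0.30 for Nr4a1 to 0.62 for Arc, which exceeded that of 60.4% and 90.5% of the 18661 genes tested, against a median SD of 0.25. In striatum it ran from 0.46 for Egr1 to 0.71 for Egr2, above 69.3% and 87.6% of genes. In cerebellum the order changed, with Egr1 at 0.28, above only 35.9% of genes, and Arc at 0.35 and Junb at 0.38 near the median of 0.35, while Egr4 reached 0.86, above 92.3%. Counts are low in Egr4 there (14 to 151 a library), so counting error adds to its spread.

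The variation was shared. Across the 18 cortices all 45 pairs of the 10 genes correlated positively, with a median Pearson r of 0.60 (range 0.29 to 0.91) in log2 CPM, a value reached by 5.41% of all pairs of genes in cortex, whose own median was 0.00. By a 2-sided permutation test with 100000 resamples and Benjamini-Hochberg adjustment over the 118 pairs of the 3 regions, 31 of the 45 had an adjusted p under 0.05; each pair of values comes from 1 library and shares its depth and tissue makeup. For a pair of genes, the 2 libraries farthest from the median are those of the gene named first. The strongest pair was Arc with Egr1 (r = 0.91, rho = 0.84, permutation p adjusted 0.000236 and 0.000506), which stayed at 0.88 without the 2 libraries farthest from the median. Junb with Egr4 followed (r = 0.89, rho = 0.89, 0.83 without 2), then Egr1 with Nr4a1 (r = 0.84, rho = 0.83, 0.73 without 2) and Fos with Egr2 (r = 0.83, rho = 0.80, 0.74 without 2). Weakest were Fos with Egr3 (r = 0.29) and Arc with Npas4 (r = 0.29). Taken as deviations from litter by genotype means, the cortical median was 0.54 with 27 pairs called, and without the 5 libraries that stand apart it was 0.65 with 29 called. Leaving out mouse M755, low in 8 of the 10 genes, gave the lowest median of any single mouse, 0.53.

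In striatum the median r was 0.63 (range -0.22 to 0.95), a value reached by 3.68% of all pairs of genes, and 31 of 45 pairs were called by the same permutation test. Egr2 with Nr4a1 reached r = 0.95 (rho = 0.93, 0.90 without 2), Junb with Egr4 0.92 (rho = 0.91, 0.89 without 2) and Nr4a1 with Npas4 0.85 (rho = 0.83, 0.76 without 2). Nr4a1 had the highest mean r with the other genes in both forebrain regions, 0.70 in cortex and 0.72 in striatum, although without the libraries that stand apart Junb (0.76) was above it (0.74) in striatum. Fos had the lowest mean r there, 0.27, followed by Egr3 with 0.35. Of its 9 partners Fos was called with Fosb (r = 0.63, permutation p adjusted 0.0146) and Npas4 (r = 0.54, permutation p adjusted 0.0359), and with neither without the libraries that stand apart (0.50 and 0.50, permutation p adjusted 0.0748 and 0.0777, n = 16). The low values of Fos depended on the processing: after genotype and the 4 surrogate variables were removed, its r was 0.60 to 0.82 with 8 of the 9 genes, all called (permutation p adjusted 0.000118 to 0.0147, not corrected for the variables removed), and 0.14 with Egr3. The lowest pair was Fos with Egr3 (r = -0.22). Deviations from litter by genotype means gave a median of 0.62 with 29 pairs called, and leaving out the libraries that stand apart 0.65 with 29 called. The lowest median without a single mouse was 0.57, without WT mouse M762.

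Cerebellum held less of this structure. Among its 28 pairs of 8 genes the median r was 0.27 (range -0.42 to 0.74), a value that 32.9% of all cerebellar pairs of genes reached, and 8 pairs were called. Leaving out mouse M755 alone raised the median to 0.42, and leaving out the 4 libraries with Hox counts to 0.44 with 9 pairs called. Fos with Nr4a1 rose from r = 0.71 (rho = 0.93) to 0.95 (permutation p adjusted 0.000147, n = 14) and Fos with Fosb from 0.67 to 0.86 without those 4. Egr4 with Nr4a1, the strongest pair over all 18 at r = 0.74, fell to 0.44 and lost its call (permutation p adjusted 0.159, n = 14). Arc with Nr4a1 went from -0.42 to 0.33. Junb with Arc had r = 0.70 over all libraries and 0.66 over those 14, but 0.50 without the 2 libraries farthest from the median (permutation p adjusted 0.0803) and 0.0036 after genotype and the 2 surrogate variables were removed (permutation p adjusted 0.988).

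**Figure D2:**
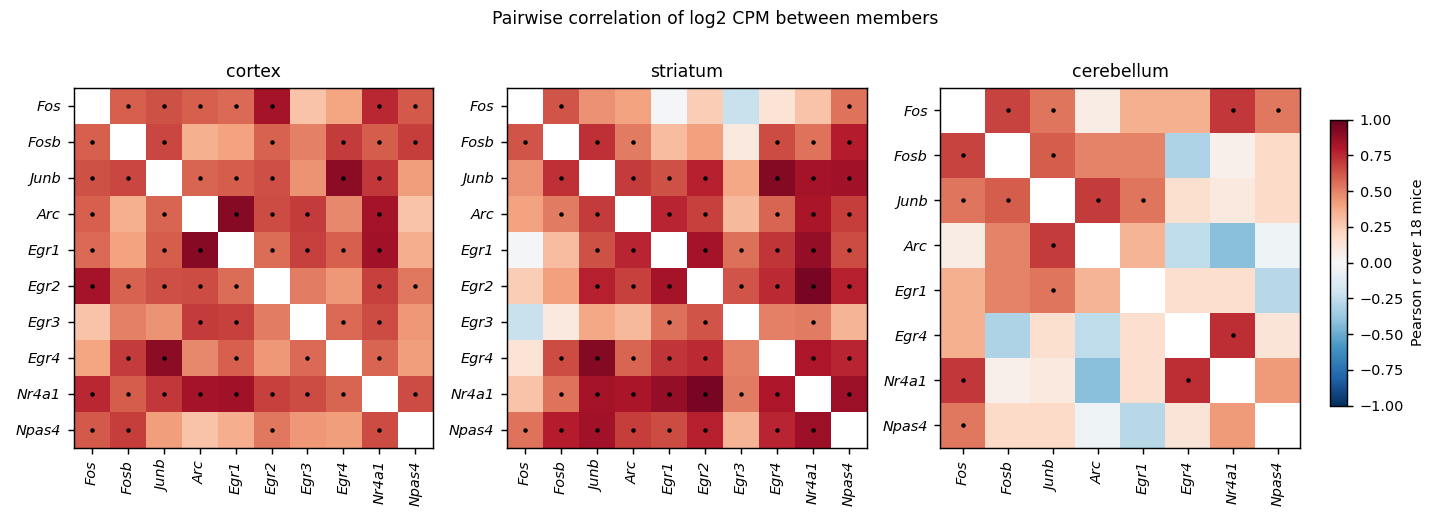
Pearson r of log2 CPM between each pair of immediate early genes across the 18 mice in cortex, striatum and cerebellum (colour scale from -1 to 1); dots mark pairs with a permutation p adjusted over 118 pairs under 0.05. All 45 cortical pairs are positive, the Fos row is pale in striatum, and 8 of 28 cerebellar pairs carry a dot.

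Single animals stood out through the whole list. WT mouse M762 had all 10 genes among the 3 lowest of the 18 striata, with Npas4 at 12.7 CPM, Egr2 at 3.96 CPM and Nr4a1 at 56.6 CPM, the lowest value of each. It was also low elsewhere, with 7 of 10 genes in the bottom 3 in cortex and 5 of 8 in cerebellum. Mbd5+/GT mouse M755 was low in cortex, with 8 of 10 genes in the bottom 3, but had the highest striatal Fos of all mice, 61.6 CPM, and Npas4 at 63.3 CPM. In striatum the high animals were WT mice M752 and M759 with 6 genes each in the top 3, and WT mouse M754 and Mbd5+/GT mouse M766 with 5 each. The striatal library of M754 is one of those poor in striatal projection neuron markers, and it gave the highest WT striatal values of Fos, Fosb, Arc and Npas4. Without the striata of M754 and M761 the WT tops were 39.2 CPM for Fos, 26.7 CPM for Fosb, 297 CPM for Arc and 48.7 CPM for Npas4. In cerebellum Mbd5+/GT mouse M758 had 7 of 8 genes in the top 3, although in striatum it had 6 of 10 in the bottom 3. High and low animals occurred in both genotypes.

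**Figure D3:**
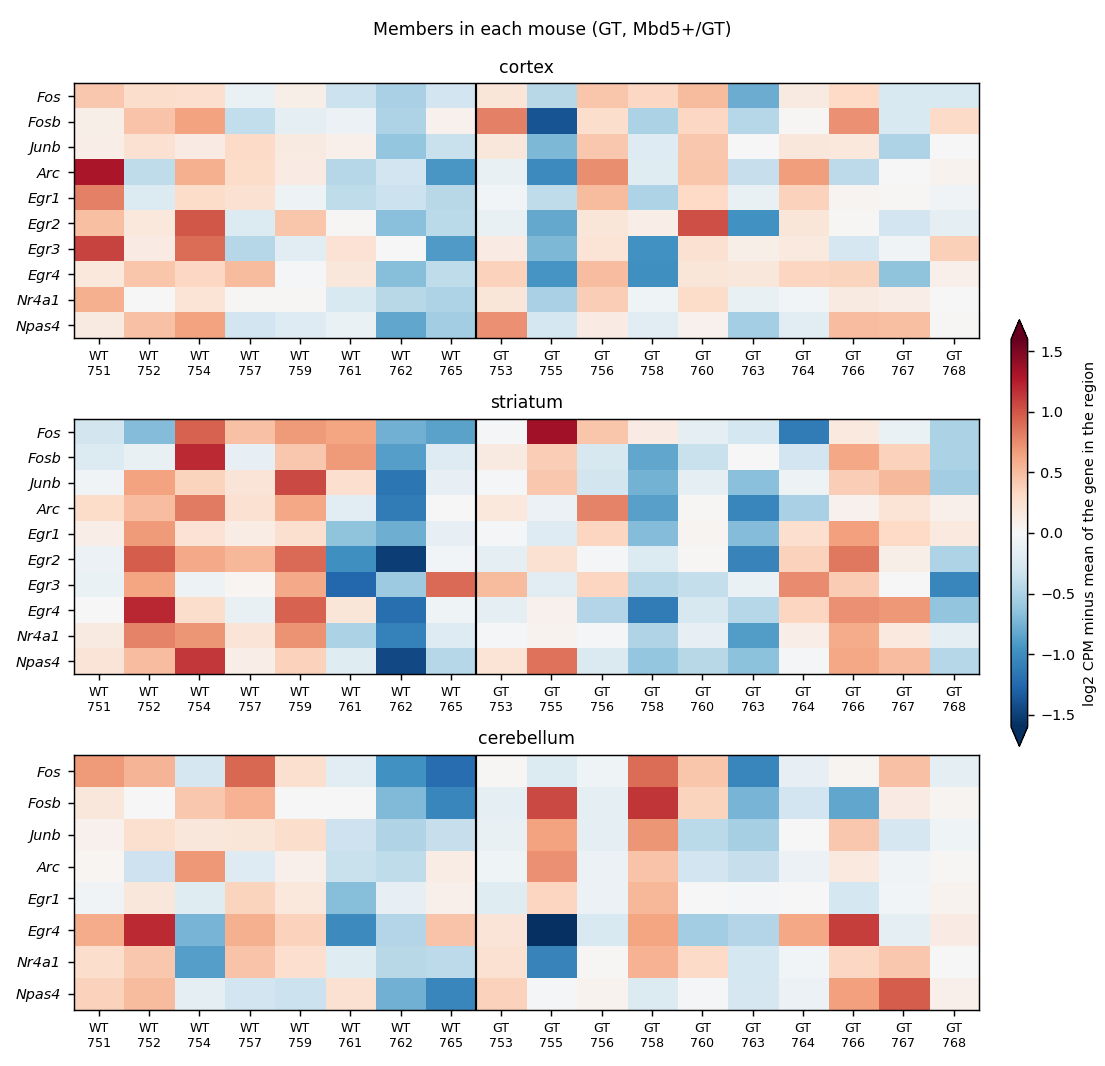
Log2 CPM of each immediate early gene in each mouse minus the mean of that gene in the region (red higher, blue lower), with WT mice left of the line and Mbd5+/GT mice (GT) right of it; Egr2 and Egr3 are left out of cerebellum for their low counts. Columns of 1 colour, such as WT mouse M762 in striatum, show genes that moved together in an animal.

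Whether an animal high in 1 region was high in another was asked gene by gene across the 18 mice, in 26 relations. Npas4 gave the clearest answer, with r = 0.78 between cortex and cerebellum (rho = 0.80, permutation p = 0.00018 for both, adjusted 0.00468) and r = 0.74 without the 2 mice farthest from the median. It held as deviations from litter by genotype means (r = 0.70, permutation p adjusted 0.0398) and over the 10 mice in which neither library stood apart (r = 0.88, permutation p adjusted 0.0237). Npas4 between cortex and striatum had r = 0.68 (rho = 0.61, permutation p adjusted 0.0248 and 0.0819), and 0.57 over the 12 mice without a library that stood apart (permutation p adjusted 0.187). Between striatum and cerebellum it had r = 0.53 (permutation p adjusted 0.127), and 0.72 over 14 mice (permutation p adjusted 0.0504). The third relation called was Fos between cortex and cerebellum, with r = 0.63 (rho = 0.63, permutation p adjusted 0.0444 and 0.0803), which fell to 0.43 without the 2 mice farthest from the median.

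None of the other 23 relations was called. Over all genes, Npas4 and Fos included, the median r was 0.36 for 10 genes between cortex and striatum, 0.16 for 8 genes between cortex and cerebellum and 0.24 for 8 between striatum and cerebellum. The last moved most, to 0.44 without the libraries that stand apart and 0.021 without the 2 mice farthest from the median. Fos between cortex and striatum had r = 0.06, and Fosb between cortex and cerebellum -0.37. Egr1 between cortex and striatum had r = 0.51 (permutation p adjusted 0.127), and 0.70 over 12 mice without a library that stood apart (permutation p adjusted 0.0987).

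**Figure D4:**
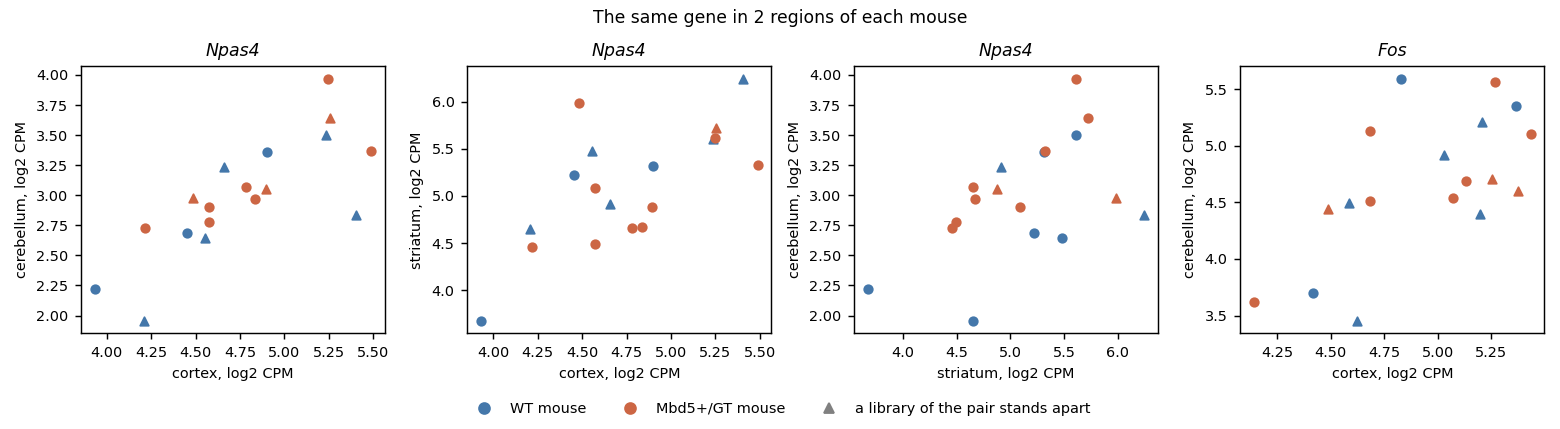
Log2 CPM of Npas4 in the 3 pairs of regions and of Fos in cortex and cerebellum, 1 point a mouse (blue, WT; orange, Mbd5+/GT; triangles, a library of the pair stands apart). Npas4 rises together in cortex and cerebellum (r = 0.78), and Fos in the same regions less tightly (r = 0.63).

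The genotype comparison asked whether lower Mbd5 goes with another basal level of these genes. None of the 10 genes passed an adjusted p of 0.05 in any region by edgeR's quasi-likelihood test with 4 surrogate variables in cortex and striatum and 2 in cerebellum, and none did by DESeq2. The whole table held few calls as well (0.0107% of cortical, 0.00539% of striatal and 0.00551% of cerebellar genes). At an unadjusted p under 0.05 edgeR found 0 of the 10 genes in cortex, 1 in striatum and 0 of the 8 tested in cerebellum, where 8.47%, 7.44% and 2.75% of all genes reached it. Median log2 differences of the list, Mbd5+/GT over WT, were -0.03 in cortex, -0.11 in striatum and 0.04 in cerebellum, against -0.00, -0.01 and -0.00 for all genes. In an exact permutation of the genotype labels, with 43758 arrangements, the lowest unadjusted 2-sided p of any gene was 0.145, for Npas4 in cerebellum.

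The gene with the unadjusted p under 0.05 was Arc in striatum, with a log2 difference of -0.30 (SE 0.132, 95% interval -0.56 to -0.04, edgeR p = 0.0358, adjusted 0.643) and 7 of 10 Mbd5+/GT mice below the WT mean. Without surrogate variables it was -0.27 (edgeR p = 0.269) and the exact permutation test gave p = 0.342. Without the libraries that stand apart the edgeR p was 0.0560, at -0.28. Egr4 in cerebellum was lower by -0.36 (SE 0.179, edgeR p = 0.0600, adjusted 1.00) with 81.2% of its variance taken up by the surrogate variables, and -0.17 (edgeR p = 0.636) without them. Npas4 in cerebellum was at 0.30 (SE 0.232, 95% interval -0.15 to 0.76, edgeR adjusted p = 1.00), with 8 of 10 Mbd5+/GT mice above the WT mean. Egr3 in cortex was at -0.24 (SE 0.147, 95% interval -0.53 to 0.05, edgeR adjusted p = 0.698).

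The intervals give only a rough measure of how large a difference these data could have missed. They use the normal approximation, which can be too narrow with 18 libraries. That of cerebellar Egr4 ran from -0.71 to -0.0061, without 0, although its edgeR p was 0.0600. In cortex the 95% intervals of Egr1 (-0.26 to 0.20), Nr4a1 (-0.18 to 0.28) and Npas4 (-0.15 to 0.37) were the narrowest of the list, while Egr2 reached from -0.63 to 0.37. In striatum Fos ran from -0.48 to 0.51 and Egr2 from -0.74 to 0.39. The narrowest interval of all was that of cerebellar Arc, -0.08 to 0.17, where the surrogate variables took up 86.0% of the variance. None of the 10 genes was called for a genotype effect that differs between regions by the edgeR interaction test, in which 0% of all genes were called in each of the 3 contrasts. At an unadjusted p under 0.05 that test found 0 of the 10 genes and 865, 228 and 548 of all 20477 genes (4.22%, 1.11% and 2.68%, in cortex against striatum, cortex against cerebellum and striatum against cerebellum), and DESeq2 called 1 gene of the table, in cortex against striatum.

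**Figure D5:**
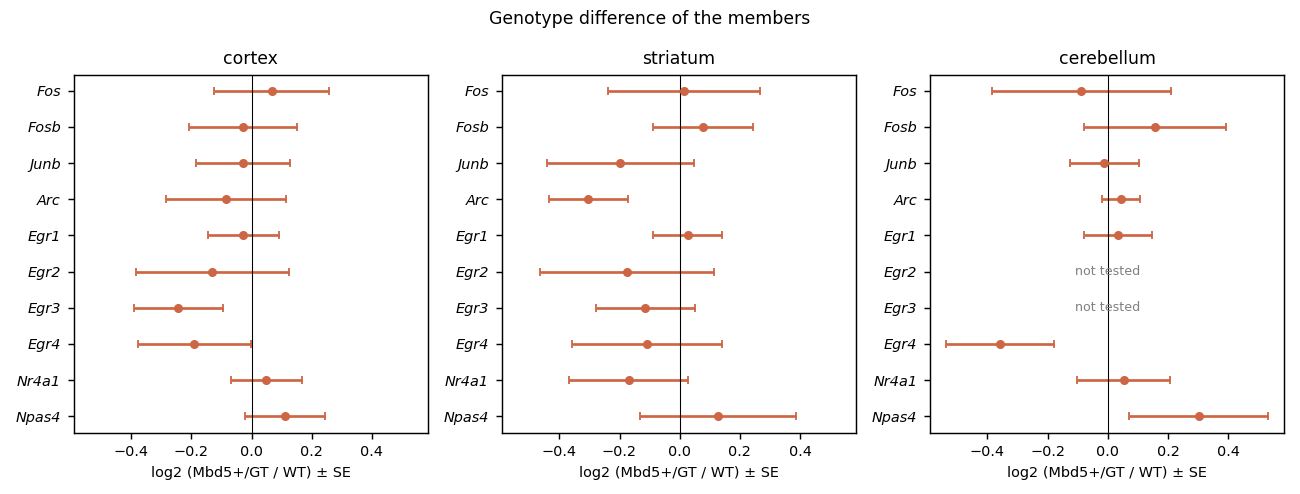
Log2 ratio of Mbd5+/GT over WT for each immediate early gene in each region, from edgeR with surrogate variables (points, estimate; bars, ± SE; 10 Mbd5+/GT and 8 WT mice). Most bars span 0, Arc in striatum at -0.30 and Egr4 in cerebellum at -0.36 lie farthest below it, and Npas4 in cerebellum at 0.30 farthest above.

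The genes around them in the pathway gave no adjusted call by genotype either. None of the 34 other rapidly induced genes, 22 delayed targets, 24 upstream receptors, channels and kinases, 18 upstream transcription factors or 12 glucocorticoid-responsive genes passed the adjusted threshold in any region by edgeR. At an unadjusted p under 0.05 in cortex, a level that 8.47% of all genes reached, 1 of the 34 other rapid genes was higher and 3 were lower, among them Rgs2, a brake on G protein signalling (-0.20, SE 0.0554, edgeR p = 0.00209), and Jun, the partner of Fos in AP-1 (0.28, SE 0.105, edgeR p = 0.0165). Also in cortex, 4 of the 22 delayed targets were lower, including Penk, which encodes the opioid precursor proenkephalin (-0.51, SE 0.202, edgeR p = 0.0240), and Homer1, a postsynaptic scaffold (-0.26, SE 0.103, edgeR p = 0.0244), as were 7 of the 24 upstream genes, including Camkk2 (-0.14, edgeR p = 0.0180) and Adcy5 (-0.34, edgeR p = 0.0249). Penk and Adcy5 are also strongly expressed in striatum, and 4 of the 5 cortical libraries with high striatal markers were WT. The 10 striatal markers themselves had a median log2 difference of -0.41 in cortex, 9 of them below 0, and 9 of the 10 choroid plexus markers were higher there at an unadjusted edgeR p under 0.05 (median 1.57); the part of either in these values was not tested.

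In striatum 32 of the 34 other rapid genes had a log2 difference below 0 (median -0.10). Only Arl4d (-0.29, edgeR p = 0.00101) and Klf6 (0.23, edgeR p = 0.00333) had an unadjusted p under 0.05, against 7.44% of all genes. The factors Mef2c (0.22, edgeR p = 0.00352) and Creb1 (0.18, edgeR p = 0.0144), which act upstream of these promoters, and Ntrk2, the BDNF receptor (0.12, edgeR p = 0.0327), were higher at that level. In cerebellum, where 2.75% of all genes met the same threshold, so did Gadd45b (0.15), Pcsk1 (0.22), Ptgs2 (0.43) and, in the other direction, Nab2 (-0.22), a corepressor of Egr proteins, and Pdk4 (-0.22). All 12 glucocorticoid-responsive genes lay below 0 in striatum (median -0.19) and 11 of 12 in cerebellum (median -0.17), none of them past the adjusted threshold. The medians of all genes, given above, were near 0. The share of all genes below 0 was not counted in any region, and these counts of signs were not tested.

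Litter and sex were tested in the same fit as genotype, because the genotypes were not spread evenly over them. As litters 1 and 2 each held a single sex, the sex difference rests on the mice of litter 3. No gene of the list passed the adjusted threshold for litter or sex by edgeR. Sex called 0.0482%, 0.0593% and 0.033% of all genes in cortex, striatum and cerebellum, and litter called 0% in each. By this fit, striatal Fos was lower in males than in females of litter 3, with a log2 difference of -1.15 (SE 0.365, edgeR p = 0.00592, adjusted 0.175). In that region 14.6% of all genes had an unadjusted p under 0.05 for sex, and DESeq2 called Fos with an adjusted p of 0.0479. The highest striatal Fos value of each genotype came from a female of litter 3, M755 (61.6 CPM) and M754 (47.0 CPM). The striatal library of M754 stands apart, and sex was not tested without it. In cortex and cerebellum no gene of the list reached that unadjusted threshold for sex (6.18% and 21.5% of all genes) or for litter (7.9% and 15.6%) by edgeR. Litter reached it for Npas4 (edgeR p = 0.0240) and Arc (edgeR p = 0.0367) in striatum, where 5.68% of all genes did. In both, the fitted values of litters 2 and 3 were above litter 1, by 0.83 and 0.98 for Npas4 and by 0.59 and 0.79 for Arc on the log2 scale. These values are adjusted for the sex difference of litter 3. As litter 1 was all female and litter 2 all male, litter and sex cannot be told apart between them.

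In each region, likeness to the list was ranked among genes with a mean log2 CPM of at least 0, a description with no test. The genes outside the list whose levels followed it most closely were found by their mean r with it over the 18 libraries. In cortex they were Midn, which encodes midnolin, a protein that takes immediate early gene products to the proteasome (mean r = 0.70), Stk40 (0.69), Txndc11 (0.66), Bcor (0.66), Spry4, an inhibitor of growth factor signalling (0.66), Gm15559 (0.65), Arhgef19 (0.65) and 5830417I10Rik (0.65). In striatum they were Vps37b (0.70), Midn (0.69), Palm (0.68), Lrfn4 (0.67), Gadd45b, a growth arrest and DNA damage-inducible gene (0.67), Phlda1 (0.67), Fam171a2 (0.67) and Neurl1a (0.67). Midn was among the 8 in both forebrain regions. Cerebellar likeness was weaker, with 2810459M11Rik (0.51), Mov10 (0.48), Ptges (0.47), Atf3, a stress-induced factor (0.46), Tagln (0.46), Cdc42ep1 (0.45), S100a11 (0.45) and Nmb (0.45).

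Of the 34 other rapid genes, 11 had a mean r above 0.5 with the list in cortex, among them Klf4 (0.64), Fosl2 (0.64) and Klf10 (0.62), against 2.08% of all genes. The number was 5 in striatum, led by Gadd45b and Srf (0.61), against 2.58% of all genes, and 0 in cerebellum against 0.0110%. Of the 22 delayed targets 3, 4 and 0 were above 0.5 in cortex, striatum and cerebellum, with Gpr3 (0.64) and Nptx2 (0.53) among those in cortex.

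Measures of tissue makeup and of stress hormone response moved with some of the genes. In all, 19 of the 364 relations between a gene and a summed marker list or library measure had a permutation p adjusted under 0.05, 3 in cortex, 5 in striatum and 11 in cerebellum. In striatum Fos correlated negatively with the summed level of 12 glucocorticoid-responsive genes (r = -0.80, rho = -0.76, permutation p = 4e-05, adjusted 0.00728; -0.70 without the 2 libraries farthest from the median). Npas4 did likewise (r = -0.76, rho = -0.66, permutation p = 0.00033, adjusted 0.02002; -0.62 without 2), and without the libraries that stand apart the values were -0.80 and -0.73 (permutation p adjusted 0.0218 and 0.0582, n = 16). Mouse M762, with the lowest striatal Npas4, had the highest such sum, 1202 CPM, and mouse M755, with the highest Fos, the lowest, 429 CPM. Striatal Arc and Egr1 ran against the choroid plexus markers (r = -0.70 and -0.68, permutation p adjusted 0.0430 and 0.0461), which ranged from 14.0 to 6379 CPM between striata, and Egr1 rose with 10 microglia markers (r = 0.68, permutation p adjusted 0.0419). Without the libraries that stand apart these were near the same in size (-0.68, -0.68 and 0.70) and no longer called (permutation p adjusted 0.0813, 0.0813 and 0.0582, n = 16).

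In cortex Arc and Egr1 ran against 10 hippocampal neuron markers (r = -0.72 and -0.67, permutation p adjusted 0.0320 and 0.0464), relations that kept their sign but not their call without the 5 libraries that stand apart (-0.61 for both, permutation p adjusted 0.203). Cortical Egr1 also rose with the excitatory neuron markers (r = 0.69, permutation p adjusted 0.0430; 0.70 and 0.102 without those 5). Over the 13 other cortices Egr3 was called with the excitatory neuron markers (r = 0.80, permutation p adjusted 0.0291, against 0.62 over all) and Npas4 with the striatal markers (r = -0.84, permutation p adjusted 0.0218, against -0.42 over all). In cerebellum Arc rose with 10 microglia markers (r = 0.90, rho = 0.85, permutation p adjusted 0.00364), and still did over the 14 libraries without Hox counts (r = 0.84, permutation p adjusted 0.0137). Arc was also called there with hippocampal neuron (r = -0.80), endothelial (0.79), oligodendrocyte (0.79) and cerebellar neuron markers (-0.67), with values of -0.49, 0.48, 0.40 and -0.048 without the 2 libraries farthest from the median. The hippocampal list had a median sum of 522 CPM in the 14 cerebella, against 160 CPM in the 13 cortices. In cerebellum it therefore does not stand for hippocampal neurons. Over the 14 libraries the hippocampal relation was still called (r = -0.88, permutation p adjusted 0.0091), the others were not, and a relation of Arc with the astrocyte markers was (r = -0.87, permutation p adjusted 0.0091), which over all 18 had r = 0.059. Other calls over all cerebella, none of them kept over the 14, were Junb with the glucocorticoid-responsive genes (r = -0.68) and the microglia markers (0.65) and Egr4 with the cortical excitatory neuron (0.77) and astrocyte markers (-0.78). Cerebellar Egr4 and Nr4a1 rose with the cerebellar neuron markers over all 18 (r = 0.75 and 0.70, permutation p adjusted 0.0419 and 0.0411), with rho of only 0.35 and 0.16, and over those 14 the values were -0.21 and -0.40, so both rested on the libraries left out. Neither the number of reads nor the share of ERCC spike-in RNA reached an adjusted p under 0.05 with any of the genes in any region over all libraries, although for Arc in cerebellum r with the spike-in share was 0.61, and 0.85 over the 14 (permutation p adjusted 0.0133). What part any of these measures had in the levels was not tested.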

How the data were processed

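RNA-seq was run on cortex, striatum and cerebellum of 10 Mbd5+/GT and 8 WT mice. The authors aligned reads with STAR 2.4.2 to Ensembl GRCm38 and deposited raw counts per gene, unnormalised, for 47069 genes and 92 ERCC spike-ins; the strand setting is not given in the sources used here. Spike-in rows (0.0207% to 0.728% of reads) entered neither library sizes nor tests. No column was left unmapped. Libraries held 25295973 to 49027399 reads on genes, and p-values measure the spread between mice.

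A gene was tested if 8 or more libraries held over 4 counts of it (18661 in cortex, 18546 in striatum, 18160 in cerebellum, 20477 over all 54). Egr2 and Egr3 did not pass in cerebellum. Genotype was tested in each region with edgeR 4.0.16 (quasi-likelihood, TMM, robust; R 4.3.3) with surrogate variables from sva 3.50.0 (rounded to 4 decimals), and regions and interactions over all 54 libraries, with Benjamini-Hochberg adjustment over all genes tested; 95% intervals use the normal approximation. CPM are TMM-scaled within a region, and correlations use log2 CPM with a prior count of 2 and permutation tests (Python 3.11.15, scipy 1.17.1). Alternatives were DESeq2 1.42.0, RLE factors, no surrogate variables, litter and sex terms, no filter, the mouse as a block, subsets and each mouse left out. Leaving out the libraries that stand apart was chosen after seeing the data. The numbers pair regions because they name the animal (median r of deviations over 17221 genes 0.117 for cortex with striatum in the same mouse, -0.023 in different mice). Replicates of a group differed beyond sampling noise (chi-square per gene at least 8.85 over 219 pairs). Scripts were tested on simulated data.

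The members and gene lists were chosen with earlier results of these data known. Named list genes are those with the lowest p in their list. Like genes are the 8 with the highest mean r with the members, among genes with a mean log2 CPM of at least 0.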

Additional observations from a re-analysis of the deposited data

Results flagged for a closer look

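In the 10 Mbd5+/GT cerebella, the library of mouse M755 lay far below the others in Egr4, with 0.457 CPM (14 counts) against 1.61 to 5.23 CPM in the other 9. The same library was far below the others in Nr4a1, with 15.4 CPM (471 counts) against 26.7 to 47.7 CPM. These were 2 of 60 groups of a gene, region and genotype examined, and chance alone gives about 1 in 20. This library stands apart in its markers, with a Hox sum of 599 CPM and cerebellar neuron markers at 209 CPM, and the part of that in both values was not tested.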

How the results depend on the processing

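Without surrogate variables, the log2 genotype difference changed sign in cortex for Fosb (0.047), Junb (0.0051) and Egr1 (0.0012), in striatum for Fos (-0.052), Fosb (-0.24) and Npas4 (-0.11), and in cerebellum for Junb (0.076). With litter and sex as covariates it did so in cortex for Fosb (0.025), Junb (0.076), Arc (0.046) and Egr1 (0.076), in striatum for Fosb (-0.26), Egr1 (-0.038) and Npas4 (-0.11), and in cerebellum for Fos (0.18) and Junb (0.13). With no filter on low counts it did so for cortical Fosb (0.25) and Junb (0.054) and striatal Fos (-0.0033), and without litter 2 for cortical Fosb (0.097) and Junb (0.056) and striatal Fos (-0.091), Fosb (-0.11) and Egr1 (-0.085). Without the libraries that stand apart it did so for cortical Fosb (0.016) and Junb (0.044), striatal Fos (-0.025) and cerebellar Egr1 (-0.071), and Egr1 in cortex against striatum moved to 0.050. Fos in striatum against cerebellum was 0.0067 by DESeq2, 0.0068 with RLE factors and 0.017 in WT libraries alone. None of these differences passed the adjusted threshold under either setting, and the cause was not tested.

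With each mouse left out in turn, 0 of the genes were called by genotype in any region. Striatal Arc stayed below 0 (-0.41 to -0.21), and in 7 of the 18 its unadjusted edgeR p was under 0.05. The log2 difference crossed 0 in cortex for Fos (-0.0096 to 0.23), Fosb (-0.13 to 0.26), Junb (-0.12 to 0.12), Egr1 (-0.13 to 0.067), Egr2 (-0.31 to 0.073), Egr3 (-0.34 to 0.042), Egr4 (-0.30 to 0.082) and Nr4a1 (-0.010 to 0.16). It did so in striatum for Fos (-0.17 to 0.15), Fosb (-0.014 to 0.20), Junb (-0.34 to 0.030), Egr1 (-0.034 to 0.14), Egr2 (-0.36 to 0.046), Egr4 (-0.25 to 0.13) and Npas4 (-0.028 to 0.27), and in cerebellum for Fos (-0.27 to 0.068), Junb (-0.11 to 0.048), Egr1 (-0.034 to 0.10) and Nr4a1 (-0.058 to 0.12).

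In cortex against striatum, 2 genes were called in WT libraries alone, against 4. DESeq2 called 1 gene of the list for sex or litter in striatum, against 0. Without the 2 libraries farthest from the median of 1 gene of each pair, 17 cortical and 4 cerebellar pairs were called, against 31 and 8. By Spearman's rho 4 cerebellar pairs were called. Of the relations between regions, 1 was called, against 3, as deviations from litter by genotype means, by Spearman's rho, without the 2 mice farthest from the median and without the libraries that stand apart. The r of Fos with Egr3 in striatum was 0.14 after surrogate variables were removed. In cerebellum the r of Arc with Nr4a1 was 0.38 without the 2 libraries farthest from the median and 0.33 without those that stand apart, where r with the cerebellar neuron markers was -0.21 for Egr4 and -0.40 for Nr4a1. With the mouse as a replicate block, 4, 9 and 9 of the genes were called in cortex against striatum, cortex against cerebellum and striatum against cerebellum, with the changes for Npas4 and Egr3 given above, and 12168, 14120 and 15503 of all genes, against 12067, 14106 and 15404; it changed no other call of the 10 genes. Low counts limit Egr2, Egr3, Egr4 and Fosb in cerebellum.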
